A study of Mus musculus with 35 samples.

Results

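The fourth day of GATA6 induction, between 72 and 96 h of doxycycline (Dox), was described gene by gene. The comparison rests on 6 of the 35 libraries of the series: 3 at 72 h and 3 at 96 h, each with replicate numbers 1 to 3. A gene entered it when its mean was at least 1 TPM in one of these groups or both, which kept 13044 of the 44853 genes in the table. TPM, the unit of the table, gives the share of a gene in its library corrected for transcript length. Differences are given on the scale of log2(TPM + 1).

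All cells of both groups were KH2 mouse ES cells (C57BL/6 x 129/Sv) with a Dox-inducible GATA6 transgene carrying a 3×HA tag. Dox was given at 1 µg/mL in medium with serum and LIF. The cells grew on mouse embryonic fibroblast feeders, which the paper's culture methods give as mitomycin C-treated. The feeders were removed by adsorption before lysis. Which inducible clone was sequenced is not given in the sources used here. Levels of Gata6 are per gene and do not separate the transgene from the endogenous locus. Libraries set beside the step were those of the same cells at 0, 16, 24, 48 and 168 h of Dox (n = 3 each), of X10 XEN cells from CD1 mice (n = 2), and of inducible cells given control siRNA (siCTL) or Oct4 siRNA (siOct4) together with Dox for 48 h (n = 6 each).

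Primitive endoderm (PrE) is the blastocyst layer that gives rise to the visceral and parietal endoderm of the yolk sacs. GATA6 sits at the top of its gene network, above SOX17, GATA4 and the receptor PDGFRA, while OCT4 (Pou5f1), SOX2, NANOG and ESRRB hold ES cells in the naive state. Parietal endoderm is a secretory cell type that lays down a thick basement membrane of type IV collagen and laminin, and it makes thrombomodulin and tissue plasminogen activator. XEN cells are stem cell lines of PrE origin.

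The promoter windows of 4 genes that changed in this step are shown first. They were picked because they hold letters known to be read by GATA factors, POU factors such as OCT4, or p53. Whether these factors act on the 4 genes was not tested. Each runs 5′ to 3′ from 250 bases before to 50 bases after a RefSeq start (GRCm38.p6), and capitals mark the letters searched for on both strands. In Cdkn1a (chr17:29090729-29091028, plus strand, the upstream of its annotated starts) the capitals are CATG, any 6 bases and CATG, the paired cores of adjacent p53 decamers. In Hmga1 (chr17:27556324-27556623, plus strand) they are the POU octamer ATGCAAAT read on the opposite strand. In Tcl1 (chr12:105222688-105222987, minus strand) and Stra6 (chr9:58133825-58134124, plus strand) they are the GATA letters AGATAA or TGATAA.
Cdkn1a: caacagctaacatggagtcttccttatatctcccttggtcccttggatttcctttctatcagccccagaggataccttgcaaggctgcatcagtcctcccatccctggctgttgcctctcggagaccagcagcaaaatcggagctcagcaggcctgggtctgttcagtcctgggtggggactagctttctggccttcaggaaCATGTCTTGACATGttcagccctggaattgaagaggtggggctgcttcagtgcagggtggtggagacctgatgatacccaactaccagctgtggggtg
Hmga1: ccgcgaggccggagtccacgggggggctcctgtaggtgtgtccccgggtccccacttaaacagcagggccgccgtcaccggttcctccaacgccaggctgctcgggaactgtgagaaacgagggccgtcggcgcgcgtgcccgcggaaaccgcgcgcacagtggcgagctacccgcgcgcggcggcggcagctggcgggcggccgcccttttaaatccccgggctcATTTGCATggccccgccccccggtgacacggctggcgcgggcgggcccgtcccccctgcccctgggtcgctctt
Tcl1: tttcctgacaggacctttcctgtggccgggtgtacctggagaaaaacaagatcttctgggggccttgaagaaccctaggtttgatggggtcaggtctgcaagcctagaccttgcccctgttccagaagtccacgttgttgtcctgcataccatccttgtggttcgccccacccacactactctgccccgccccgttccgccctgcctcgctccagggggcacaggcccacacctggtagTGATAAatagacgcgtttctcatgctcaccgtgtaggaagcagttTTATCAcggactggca
Stra6: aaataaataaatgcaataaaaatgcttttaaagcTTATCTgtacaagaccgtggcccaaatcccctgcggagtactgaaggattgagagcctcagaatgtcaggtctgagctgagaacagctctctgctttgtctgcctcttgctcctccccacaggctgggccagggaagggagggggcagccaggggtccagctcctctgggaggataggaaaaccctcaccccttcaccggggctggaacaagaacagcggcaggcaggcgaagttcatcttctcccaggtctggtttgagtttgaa

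Among the tested genes 9782 had at least one RefSeq window, 12551 windows in all, of which 97 belonged to genes that rose and 169 to genes that fell. The GATA letters stood in 9.75% of all windows, in 8.25% of the windows of genes that rose and in 11.2% of those of genes that fell. The octamer stood in 1.4% of all windows, 2.06% of those of rising genes and 4.73% of those of falling genes, or 8 windows belonging to Chchd10, Egr2, Hmga1, Itpr3 and Sh3gl3. The paired p53 cores stood in 0.263% of all windows and, among the rising genes, in that of Cdkn1a alone. Several windows of one gene overlap, so these shares are a description of letters and are not a count of bound sites.

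Before the step was tested, the libraries were compared. Between 12330 and 12830 genes reached 1 TPM in the 6 libraries. Replicate 3 at 72 h stood apart from its group. Across the tested genes its Pearson correlation was 0.961 and 0.964 with the other libraries at 72 h and 0.981 to 0.982 with those at 96 h. It deviated from its group mean by 0.388 (root mean square, log2), against 0.249 and 0.263 for the other 72 h libraries and 0.152 to 0.253 in all other groups. Relative to both other 72 h libraries it was over 2-fold higher for 194 genes and over 2-fold lower for 556, whereas each of the other 5 libraries differed in this way from its group for 44 to 133 genes. Its position on the line from the 0 h profile (0%) to the XEN profile (100%) was nevertheless that of its group: 51.0, 51.2 and 51.4% at 72 h, and 62.9, 62.5 and 59.9% at 96 h. The positions did not overlap between groups (51.2 ± 0.18 against 61.8 ± 1.62%, SD, n = 3, exact permutation test, two-sided, p = 0.1, the smallest possible with 3 against 3).

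The genes that set this library apart were read from the values, at a group mean of at least 20 TPM. Among the strongest lower genes were Ndrg1, Bnip3, Aldoc, Bhlhe40 and Pgm1, which are known to be induced at low oxygen, and Pdcd4 and Aqp8. Ndrg1 was at 92.0, 91.0 and 6.78 TPM at 72 h and at 5.17, 6.40 and 12.2 TPM at 96 h. Among the strongest higher genes were the contractile genes Acta2 and Tagln, the S100 calcium-binding genes S100a4 and S100a6, and the chaperone Cryab. Acta2 was at 8.23, 10.7 and 98.3 TPM at 72 h and at 59.6, 58.5 and 29.1 TPM at 96 h. For both genes replicate 3 at 72 h lay with or beyond the 96 h libraries, so that the counts of the step and of its lists are also given without it where they differ. A list of 20 fibroblast markers moved with this library, and as Acta2 is a member, the list is not separate from the genes above. Its summed level was 97.7, 113.9 and 386.1 TPM at 72 h and 281.9, 266.2 and 169.1 TPM at 96 h. None of its members was at 0 in all 6 libraries, 13 were tested and none was called. At an unadjusted p under 0.05 (limma) 1 was higher and 0 lower, against 2340 and 2301 of all 13044 tested genes. Of the 13, 4 were called higher without replicate 3 at 72 h (1.56% of all tested genes were), when their median change was 0.70, against 0.32 with it. Its part in the results was not tested.

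From 72 to 96 h, 103 genes rose (0.790% of those tested) and 158 fell (1.21%), at an adjusted p under 0.05 (limma, Benjamini-Hochberg) and an absolute log2 fold change above 1. The median change over all tested genes was -0.004. Without replicate 3 at 72 h, 203 genes rose (1.56%) and 532 fell (4.08%), including 98 and 152 of those above. With that library standing alone for 72 h, 67 rose (0.514%) and 42 fell (0.322%), including 18 and 19 of those above. A core of 43 risen and 43 fallen genes was called again whichever of the 6 libraries was left out (0.330% of those tested in each direction). When the 6 libraries were fitted by themselves, without the spread of the other 17, 10 genes rose (0.0767%) and 7 fell (0.0537%). With all libraries fitted, the step had fewer calls than its neighbours. From 48 to 72 h, which shares the 72 h libraries, 294 genes rose (2.25%) and 176 fell (1.35%). From 96 to 168 h, which shares the 96 h libraries and lasts longer, 685 rose (5.25%) and 370 fell (2.84%). The step itself had 203 and 532 calls without replicate 3 at 72 h, and the calls from 48 to 72 h without it are not given here. The order is therefore stated for the fit of all libraries only.

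**Figure D1:**
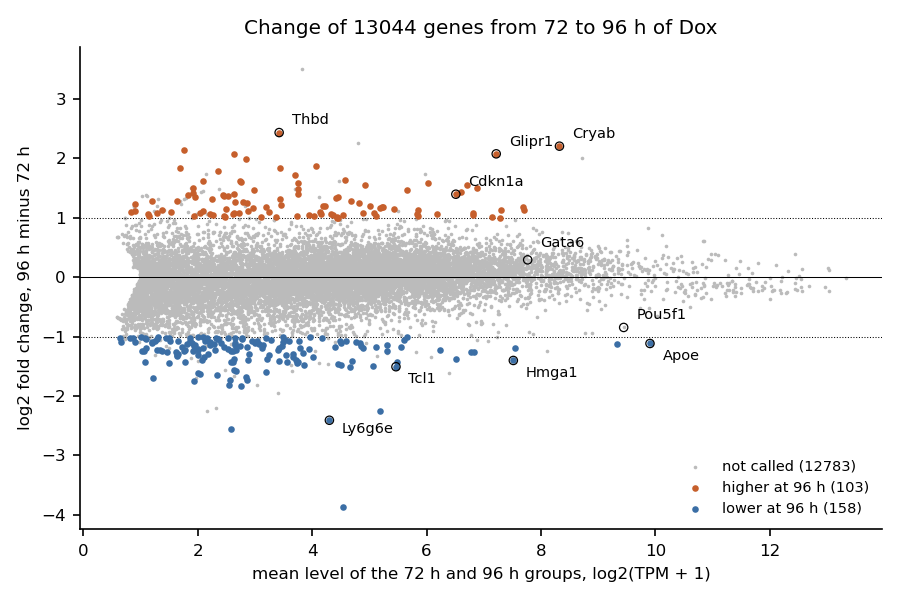
Log2 fold change of each of the 13044 tested genes from 72 to 96 h (vertical axis) against its mean level (horizontal axis, log2(TPM + 1)), with dotted lines at the fold minimum. The 103 genes called higher and 158 called lower are coloured, and 10 genes named in the text are circled, among them Gata6 and Pou5f1, which lie inside the fold minimum.

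Thbd, Plat and Stra6, of the parietal endoderm and basement membrane list, rose. Thbd (thrombomodulin, chromosome 2, 148404466 to 148408188, mm10) was at 1.85, 2.10 and 2.82 TPM at 72 h and at 20.1, 20.9 and 10.6 TPM at 96 h. Every 96 h library lay well above every 72 h library. Its change of 2.44 ± 0.22 (SE, adjusted p = 6.3e-06, limma) was the largest of the rises without overlap at a mean of at least 5 TPM, and it was called in every leave-one-out fit. Plat, the tissue plasminogen activator, was at 4.65, 4.29 and 10.6 TPM and then at 28.03, 28.08 and 19.2 TPM, a change of 1.87 ± 0.30 (adjusted p = 0.00077). Stra6, the receptor that takes up retinol from its carrier, was at 8.47, 7.86 and 19.4 TPM and then at 33.4, 29.2 and 26.2 TPM (1.35 ± 0.23, adjusted p = 0.0010). In Plat and Stra6 replicate 3 at 72 h lay above the other 72 h libraries and below all 96 h libraries.

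These were the 3 genes called higher among 25 tested members of that list (0.790% of all tested genes were), with and without replicate 3 at 72 h. With that library alone for 72 h their changes were 2.19 for Thbd, 1.15 for Plat and 0.58 for Stra6. None of the list was called lower, but 6 members had a negative change, the lowest at -0.85. Of these, 2 were lower at an adjusted p under 0.05 with no fold minimum (9.71% of all tested genes). Its structural members, by far the more abundant, did not pass. Col4a1 was at 2253, 2325 and 1832 TPM at 72 h and at 2462, 2670 and 2663 TPM at 96 h (0.29 ± 0.13, adjusted p = 0.13). Lama1, Lamb1 and Lamc1 changed by 0.18, 0.08 and 0.30, and Sparc, a collagen chaperone of the matrix, by 0.20 ± 0.23. The median over the list was 0.18, against -0.004 over all tested genes. The same list had 9 members called higher from 48 to 72 h (2.25% of all tested genes were) and 11 from 96 to 168 h (5.25%).

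No regulator of PrE was called. Of 13 tested PrE transcription factors none passed in either direction by limma, and their median change was 0.28. At an unadjusted p under 0.05 (limma) 3 were higher and 1 lower, against 2340 and 2301 of all 13044 tested genes. Gata6 was at 187.8, 200.8 and 196.0 TPM at 72 h and at 239.8, 244.3 and 232.1 TPM at 96 h. The groups did not overlap, and the change of 0.29 ± 0.09 (adjusted p = 0.026) was below the fold minimum. Gata4 (0.03 ± 0.12), Sox17 (-0.07 ± 0.18), Foxa2 (0.28 ± 0.24), Hnf4a (-0.28 ± 0.29) and Sox7 (0.54 ± 0.20, adjusted p = 0.062) did not pass. The endocytic receptors Cubn, Amn and Lrp2 and their adaptor Dab2 did not pass either, with changes of -0.002, -0.07, 0.41 and 0.07. Dab2 was already at 883, 947 and 901 TPM at 72 h, against 905.3, 880.2 and 1089 TPM at 96 h.

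Among 18 PrE surface and signalling genes, Kit and Fst rose and none fell, where 0.790% of all tested genes rose and 1.21% fell. Kit, the stem cell factor receptor, was at 31.8, 28.8 and 10.4 TPM and then at 53.1, 51.3 and 44.8 TPM (1.18 ± 0.25, adjusted p = 0.0044). Fst, an extracellular inhibitor of activins, was at 28.8, 27.2 and 9.60 TPM and then at 48.3, 52.8 and 30.5 TPM (1.08 ± 0.29, adjusted p = 0.016). In both genes replicate 3 at 72 h was the lowest library, and without it the changes were 0.70 and 0.59, under the fold minimum. Pdgfra, the receptor by which PrE is often sorted, was at 194.2, 195.2 and 139.6 TPM and then at 154.9, 160.8 and 162.4 TPM, with overlapping groups (-0.13 ± 0.15).

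**Figure D2:**
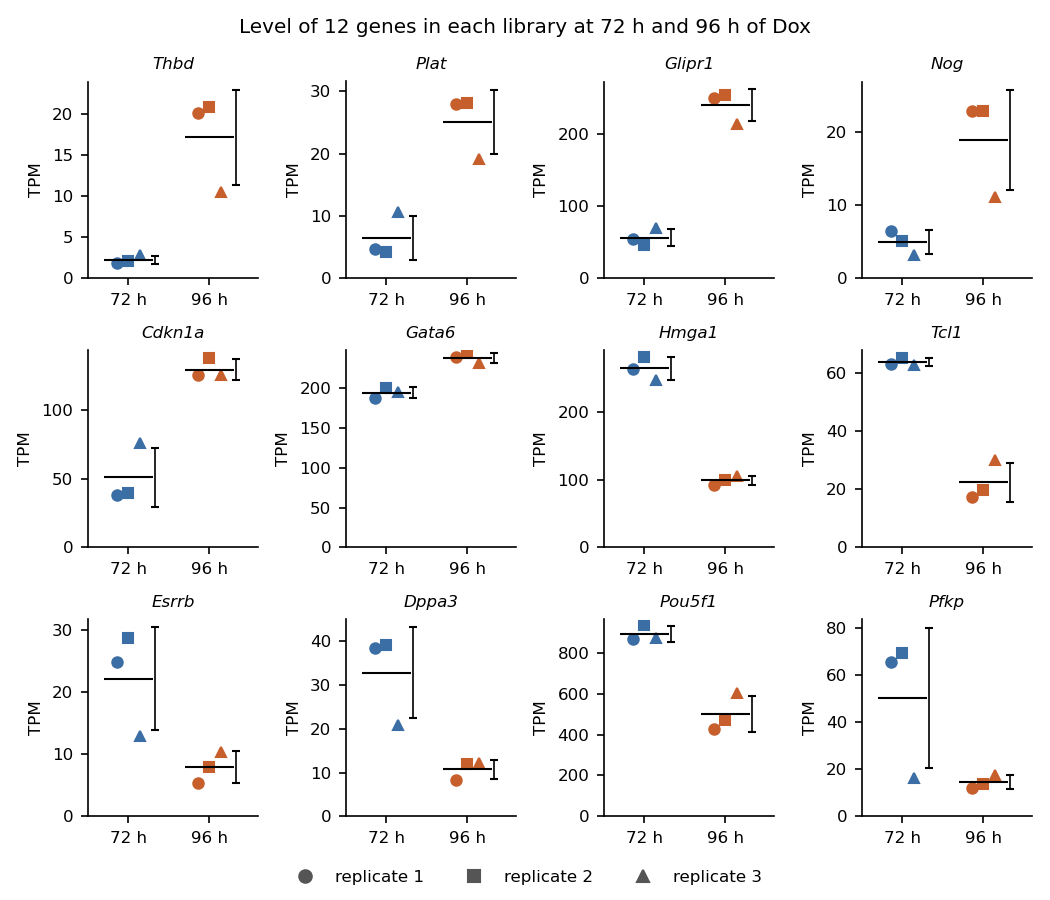
TPM of 12 genes in each library at 72 h (blue) and 96 h (orange), with circles, squares and triangles for replicates 1, 2 and 3, a line at the group mean and a bar of 1 SD (n = 3). Thbd, Plat, Glipr1, Nog, Cdkn1a and Gata6 are higher in every 96 h library and Hmga1, Tcl1, Esrrb, Dppa3 and Pou5f1 lower, while for Pfkp replicate 3 at 72 h (16.2 TPM) lies among the 96 h libraries.

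Inhibitors and ligands of signalling pathways changed on both sides. Nog, the secreted BMP inhibitor noggin, was at 6.42, 5.14 and 3.17 TPM at 72 h and at 22.9, 22.8 and 11.1 TPM at 96 h, and rose by 1.72 ± 0.22 (adjusted p = 8.4e-05). Lefty2, a Nodal inhibitor, was at 3.69, 5.80 and 4.72 TPM and then at 1.74, 1.25 and 0.954 TPM, a change of -1.31 ± 0.32 (adjusted p = 0.0096). Tdgf1, the Nodal co-receptor Cripto, was at 23.8, 26.1 and 9.04 TPM and then at 5.99, 7.74 and 6.91 TPM (-1.27 ± 0.31, adjusted p = 0.010). With Fst these made 2 rises and 2 falls among 26 tested genes of the Nodal and BMP pathways. Without replicate 3 at 72 h there were 1 and 4. Over all tested genes 0.790% rose and 1.21% fell, and without that library 1.56% rose and 4.08% fell. Lefty2 and Tdgf1 were also the calls among 13 formative and primed epiblast genes, with and without that library. Of 21 genes of the FGF and ERK pathway Fgf4, the growth factor by which epiblast cells signal to PrE, was the single call, at -1.001 ± 0.224 (adjusted p = 0.0065). Its values were 5.70, 6.26 and 2.27 TPM at 72 h and 1.33, 2.01 and 1.84 TPM at 96 h. After median-of-ratios rescaling its change no longer passed the fold minimum, and without replicate 3 at 72 h 3 genes of the list fell. Wnt4 was the single call among 14 WNT pathway genes (1 higher and 1 lower without replicate 3 at 72 h), at 0.304, 0.395 and 1.26 TPM and then 2.84, 2.73 and 2.06 TPM (1.14 ± 0.25, adjusted p = 0.0062). Kdr, a VEGF receptor, rose by 1.03 ± 0.21 (adjusted p = 0.0037) from a mean of 1.51 to 4.14 TPM. Igf1, an insulin-like growth factor, was at 8.64, 7.04 and 16.6 TPM and then at 26.8, 30.7 and 46.2 TPM (1.64 ± 0.34, adjusted p = 0.0037).

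Other large rises fell outside the lists. Glipr1, a secreted or membrane protein of the CAP family, was at 54.0, 46.0 and 69.4 TPM at 72 h and at 249.4, 254.0 and 213.6 TPM at 96 h, and rose by 2.08 ± 0.28 (adjusted p = 0.00015). It passed with replicate 3 left out, with that library alone and in the fit of 6 libraries. Cryab, the small heat shock protein alpha-B crystallin, was at 67.6, 67.8 and 266.7 TPM and then at 555.9, 555.6 and 400.5 TPM (2.21 ± 0.44, adjusted p = 0.0036). Its change was 2.86 without replicate 3 at 72 h and 0.90 with that library alone. Fxyd3, a regulator of the sodium pump, rose by 1.62 ± 0.22 (adjusted p = 0.00014), from a mean of 2.34 to 9.03 TPM. The other rises taken by size were Fam124a (1.84), Inka2 (1.78), Zfp365 (1.995), Nkx2-9 (1.63) and Gm49733 (2.08), the last with 0, 1.82 and 2.15 TPM and then 15.2, 3.12 and 9.12 TPM. Wars, a tRNA synthetase, and Dnajb11, a co-chaperone of the endoplasmic reticulum (ER), rose by 1.13 ± 0.22 and 1.13 ± 0.25. They were among the 5 called genes that gained the most TPM. Without replicate 3 at 72 h their changes were 1.42 and 1.57, and with that library alone 0.53 and 0.26.

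Cdkn1a, Ccng1 and Phlda3, which are known targets of p53, rose. Cdkn1a, the cyclin-dependent kinase inhibitor p21, whose window is printed above, was at 38.0, 39.2 and 75.9 TPM at 72 h and at 125.1, 137.8 and 125.1 TPM at 96 h. It rose by 1.40 ± 0.18 (adjusted p = 0.00014), in every leave-one-out fit. Ccng1 (cyclin G1) was at 93.5, 100.5 and 195.0 TPM and then at 285.1, 301.3 and 251.2 TPM (1.18 ± 0.20, adjusted p = 0.0012). Phlda3, an inhibitor of AKT, was at 53.8, 55.5 and 117.7 TPM and then at 143.2, 158.7 and 141.4 TPM (1.05 ± 0.20, adjusted p = 0.0027). In all 3 genes the groups did not overlap and replicate 3 at 72 h lay between the other 72 h libraries and those at 96 h.

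These were the calls among 20 tested members of a list of p53 targets and cell death genes, with no call lower. Over all tested genes 0.790% were called higher, and 1.56% without replicate 3 at 72 h. When replicate 3 at 72 h was left out 6 members were called higher, and with that library alone none was. Of the 20, 14 had a positive change and 6 a negative one. Members of that list that missed the fold minimum were named after their values were seen: Mdm2, the ubiquitin ligase of p53, at 0.86 ± 0.18 (adjusted p = 0.0039), Aen at 0.82 and Zmat3 at 0.78, and on the other side the death genes Pmaip1 (-0.52) and Bcl2l11 (-0.50). The summed level of the list was 1021, 1045 and 1345 TPM at 72 h and 1620, 1714 and 1604 TPM at 96 h. Pidd1 and Plk2, which are also known p53 targets and were likewise chosen after their values were seen, rose by 1.33 ± 0.24 and 1.59 ± 0.25. The fibroblast marker sum given above was also higher in replicate 3 at 72 h and in the 96 h libraries, and its part in these rises was not tested.

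Genes of the ER secretory route and of collagen processing shifted upward by a small amount each. None of 35 tested members passed the fold minimum. At an unadjusted p under 0.05 (limma) 26 were higher and 1 lower, against 2340 and 2301 of all 13044 tested genes. Of the 35, 32 had a positive change, 26 were higher in every 96 h library than in any 72 h library (15.5% of all tested genes were) and 21 were higher at an adjusted p under 0.05 with no fold minimum (10.2% of all tested genes). The list was summed to 14188, 14902 and 14931 TPM at 72 h and 18609, 19330 and 19005 TPM at 96 h. Replicate 3 at 72 h did not stand apart in this sum. The median change was 0.34, 0.32 without that library and 0.34 with it alone, when 2 members passed the fold minimum. By size, and chosen after the values were seen, examples were the chaperone Hspa5 (BiP, 0.71 ± 0.14, adjusted p = 0.0032), Calr (calreticulin, 0.61 ± 0.14), Canx (calnexin, 0.59 ± 0.10) and P3h1, a collagen prolyl hydroxylase (0.68 ± 0.09, adjusted p = 0.00014). Of 18 tested genes of the unfolded protein and integrated stress response none was called higher, and the median was -0.03. Chac1, a glutathione-degrading enzyme of that response, fell by 1.14 on the log2 scale (SE 0.27, adjusted p = 0.0091). At an adjusted p under 0.05 with no fold minimum 2 of the 18 were higher and 3 lower (10.2% and 9.71% of all tested genes). At an unadjusted p under 0.05 (limma) these were 4 and 3. Of these 18 genes, 2 fell without replicate 3 at 72 h (4.08% of all tested genes).

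**Figure D3:**
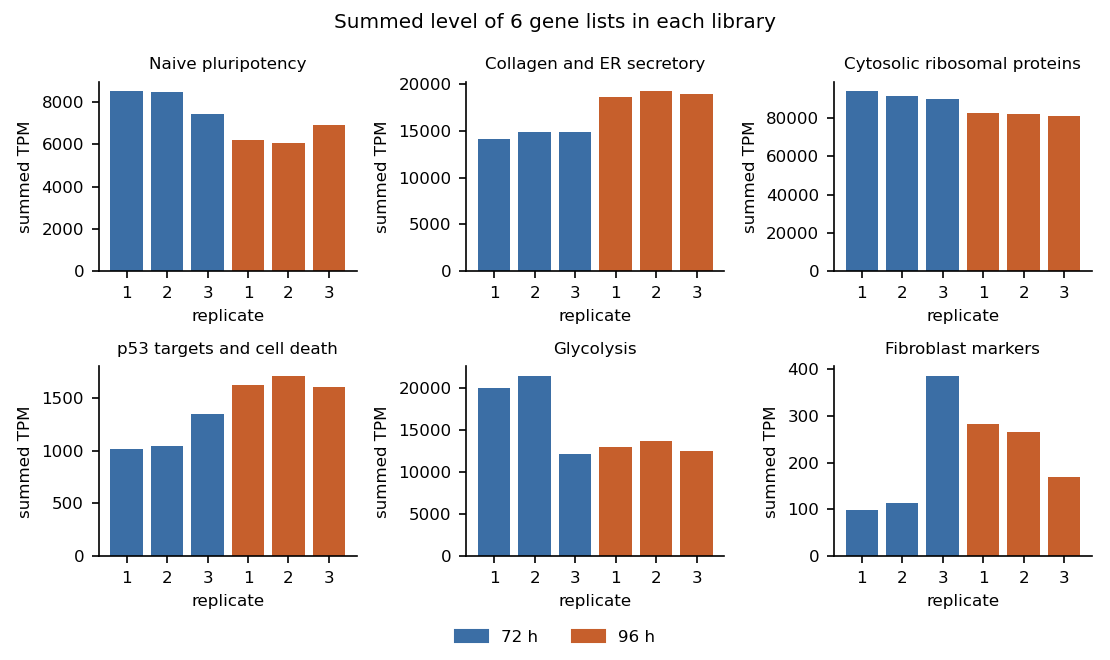
Summed TPM of 6 gene lists (bars, one per library, by replicate number) at 72 h (blue) and 96 h (orange). The ER secretory list rises from 14188 to 14931 TPM at 72 h to at least 18609 TPM at 96 h and the ribosomal list is lower in every 96 h library, whereas for glycolysis and the fibroblast markers replicate 3 at 72 h sits apart from its group.

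Cytosolic ribosomal protein genes shifted the other way. Of 29 tested none passed the fold minimum. At an unadjusted p under 0.05 (limma) 0 were higher and 20 lower, against 2340 and 2301 of all 13044 tested genes. Of the 29, 27 had a negative change, 18 were lower in every 96 h library than in any 72 h library (11.2% of all tested genes were) and 15 were lower at an adjusted p under 0.05 with no fold minimum (9.71% of all tested genes). Their sum was 94362, 91670 and 89865 TPM at 72 h and 82796, 82232 and 80941 TPM at 96 h, and their median change was -0.16. These genes are short and abundant and hold a large part of all TPM, and as TPM are shares, a lower sum in one list raises other shares by construction. The median over all genes was -0.009 after median-of-ratios rescaling of the libraries, and the mean sums were then 90057 and 79983 TPM. Genes of DNA replication had no call (4 higher and 4 lower at an unadjusted p under 0.05, limma) and a median of 0.03. Those of mitosis had no call (0 and 7) and a median of -0.10.

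Part of the naive pluripotency genes fell. Of 25 tested members 6 fell (Tcl1, Dppa3, Tfcp2l1, Nr0b1, Esrrb and Fgf4), none rose, 24 had a negative change, and 18 were lower in every 96 h library than in any 72 h library. Over all tested genes 1.21% fell and 11.2% were lower without overlap. Without replicate 3 at 72 h, 10 members fell (4.08% of all tested genes), and with that library alone 2 fell (0.322%). Esrrb, an orphan nuclear receptor of the naive network, was at 24.9, 28.8 and 12.9 TPM at 72 h and at 5.43, 8.01 and 10.4 TPM at 96 h. The groups did not overlap, and Esrrb fell by 1.34 on the log2 scale (SE 0.29, adjusted p = 0.0052). Tfcp2l1, a transcription factor of the same network, was at 23.6, 23.6 and 9.50 TPM and then at 5.14, 5.64 and 6.64 TPM (-1.45 ± 0.27, adjusted p = 0.0019). Nr0b1 (Dax1), an orphan receptor that binds OCT4, was at 9.48, 8.60 and 5.64 TPM and then at 1.63, 2.61 and 2.61 TPM (-1.43 ± 0.24, adjusted p = 0.00092). Dppa3 (Stella), a maternal factor kept in naive cells, was at 38.4, 39.2 and 20.9 TPM and then at 8.26, 11.9 and 12.1 TPM (-1.49 ± 0.24, adjusted p = 0.00079). In each of these 4 genes replicate 3 at 72 h was the lowest of its group and above every 96 h library.

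Tcl1, a co-activator of AKT whose window is printed above, was nearly equal in the 72 h libraries, at 63.2, 65.4 and 63.0 TPM, and stood at 17.3, 19.7 and 30.2 TPM at 96 h. It fell by 1.51 on the log2 scale (SE 0.17, adjusted p = 2.7e-05), and by 1.49 with replicate 3 alone for 72 h. Pou5f1, which encodes OCT4, was at 866.9, 935.4 and 873.3 TPM and then at 428.9, 471.2 and 600.3 TPM. Its groups did not overlap, its change of -0.85 ± 0.25 (adjusted p = 0.027) was under the fold minimum, and it was -0.86 without replicate 3 and -0.82 with it alone. Sox2 was at 24.1, 25.8 and 11.7 TPM and then at 8.42, 10.1 and 9.25 TPM, and its change of -0.998 ± 0.199 (adjusted p = 0.0032) lay just inside the fold minimum, while without replicate 3 it was -1.34 and passed. Nanog (-0.90 ± 0.22), Klf2 (-0.94 ± 0.27) and the epithelial cadherin Cdh1 (-0.73 ± 0.13) were lower at an adjusted p under 0.05 and missed the fold minimum. Zfp42 (-0.31), Klf5 (-0.21) and Dppa5a (-0.26) did not pass, and Dppa5a still stood at 4525, 4286 and 4985 TPM at 96 h.

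The fall with the smallest p was that of Hmga1, a DNA-bending chromatin protein abundant in undifferentiated cells. It was at 264.5, 281.7 and 247.6 TPM at 72 h and at 92.5, 100.4 and 105.3 TPM at 96 h, a change of -1.40 ± 0.06 (adjusted p = 1.5e-10). No library stood apart in it. Its window above holds the octamer close to the start. Hmga1b is a near-identical copy whose reads may be shared with Hmga1, so that its own change (-1.25 ± 0.12) is uncertain. In the fit of the 6 libraries by themselves Hmga1 also passed (adjusted p = 0.021).

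Other falls joined genes of several functions. Cyp4f14, a cytochrome P450 of fatty acid hydroxylation, was at 7.06, 7.63 and 9.62 TPM and then at 1.21, 1.49 and 2.62 TPM (-1.74 ± 0.21, adjusted p = 6.7e-05), and passed with replicate 3 at 72 h alone. Bhmt, the betaine-homocysteine methyltransferase, was at 5.79, 5.14 and 4.08 TPM and then at 0.629, 0.790 and 1.54 TPM (-1.61 ± 0.24, adjusted p = 0.00041). Both had been low at 0 h, with means of 0.186 and 0.125 TPM, and higher at 48 h, with 11.8 and 10.3 TPM, so that both were past their highest level of these times at 72 h. Ly6g6e was at 42.3, 43.4 and 12.7 TPM and then at 4.50, 4.13 and 5.20 TPM (-2.41 ± 0.33, adjusted p = 0.00021). Sox15 (-1.64 ± 0.27), Mymx (-1.59 ± 0.27), Sapcd1 (-1.58 ± 0.30) and Ifitm1 (-1.51 ± 0.29) fell in every leave-one-out fit. Gm26315, Immp2l and Lrrc61 also entered by size, with changes of -2.56, -1.83 and -1.57 and SEs of 0.88, 0.62 and 0.40.

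In several abundant genes that fell, replicate 3 at 72 h was far below the rest of its group. Apoe, which encodes apolipoprotein E, lost the most TPM of all called genes (-1.12 ± 0.33, adjusted p = 0.025, limma). It went from 1510, 1579 and 872.4 TPM to 517.2, 538.5 and 729.5 TPM. It was the single call among 15 tested visceral endoderm and yolk sac carrier genes, of which 1 rose and 4 fell without replicate 3 at 72 h. Over all tested genes 1.21% fell, and without that library 1.56% rose and 4.08% fell. With that library alone for 72 h the median over these 15 genes was -0.05, against -0.47 with 3 libraries. Apoc1, the neighbour of Apoe, was at 320.8, 291.6 and 168.5 TPM and then at 97.0, 89.2 and 152.4 TPM (-1.19 ± 0.24, adjusted p = 0.0033). Both were already abundant in untreated cells at 0 h, with means of 730.2 TPM for Apoe and 245.7 TPM for Apoc1. In XEN cells their means were 15.8 and 0 TPM. The metallothionein Mt2 was at 1255, 992.3 and 464.6 TPM and then at 382.1, 368.0 and 398.7 TPM (-1.12 ± 0.22, adjusted p = 0.0030). In H2-K1, a class I histocompatibility gene, replicate 3 at 72 h (66.2 TPM) lay among the 96 h libraries (40.7, 59.2 and 80.6 TPM), and its change of -1.26 was -0.19 with that library alone for 72 h. Pfkp, a phosphofructokinase and the single call among 22 glycolytic genes, was at 65.7, 69.7 and 16.2 TPM and then at 11.99, 13.999 and 17.8 TPM. All 22 glycolytic genes had a negative change and the median was -0.39, but with replicate 3 alone for 72 h the median was 0.20, and without it 5 members fell. The glycolytic sums were 19913, 21442 and 12089 TPM at 72 h and 13001, 13633 and 12523 TPM at 96 h.

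Imprinted noncoding RNAs of one locus fell together. Meg3, Rian and Mirg lie next to each other on chromosome 12 between 109541001 and 109749460 (mm10) and are expressed from the maternal copy. Rian was at 36.2, 39.5 and 18.5 TPM and then at 9.56, 11.04 and 9.86 TPM (-1.47 ± 0.24, adjusted p = 0.00092). Meg3 was at 47.9, 44.9 and 28.002 TPM and then at 15.9, 14.1 and 20.3 TPM (-1.19 ± 0.24, adjusted p = 0.0032). Both fell in every leave-one-out fit, whereas in Mirg (-1.16 ± 0.36) the groups overlapped. With Phlda2, a growth-restraining placental gene (-1.17 ± 0.25), these made the 4 falls among 23 tested imprinted genes (1.21% of all tested genes fell), of which none rose. Of the 23, 7 fell without replicate 3 at 72 h (4.08% of all tested genes), and with that library alone none fell. Means at 168 h were 13.2 TPM for Rian and 28.6 TPM for Meg3, and 11.1 and 17.9 TPM in XEN cells.

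Adhesion genes changed on both sides. Itga6, the laminin receptor subunit alpha 6, was at 33.9, 30.1 and 21.5 TPM and then at 10.3, 12.3 and 13.1 TPM and fell by 1.18 on the log2 scale (SE 0.16, adjusted p = 0.00015). Flna, the actin crosslinker filamin A, was at 61.1, 65.8 and 174.0 TPM and then at 186.8, 201.0 and 155.0 TPM. Its groups overlapped, and its change of 1.01 ± 0.25 (adjusted p = 0.010) was 1.49 without replicate 3 at 72 h and 0.05 with that library alone. Cldn3, a tight junction claudin, fell by 1.29 on the log2 scale (SE 0.26, adjusted p = 0.0035). It was the single call among 26 genes of epithelial junctions and of the epithelial to mesenchymal transition, where 1.21% of all tested genes fell. Of the 26, 3 fell without replicate 3 at 72 h (4.08% of all tested genes).

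**Figure D4:**
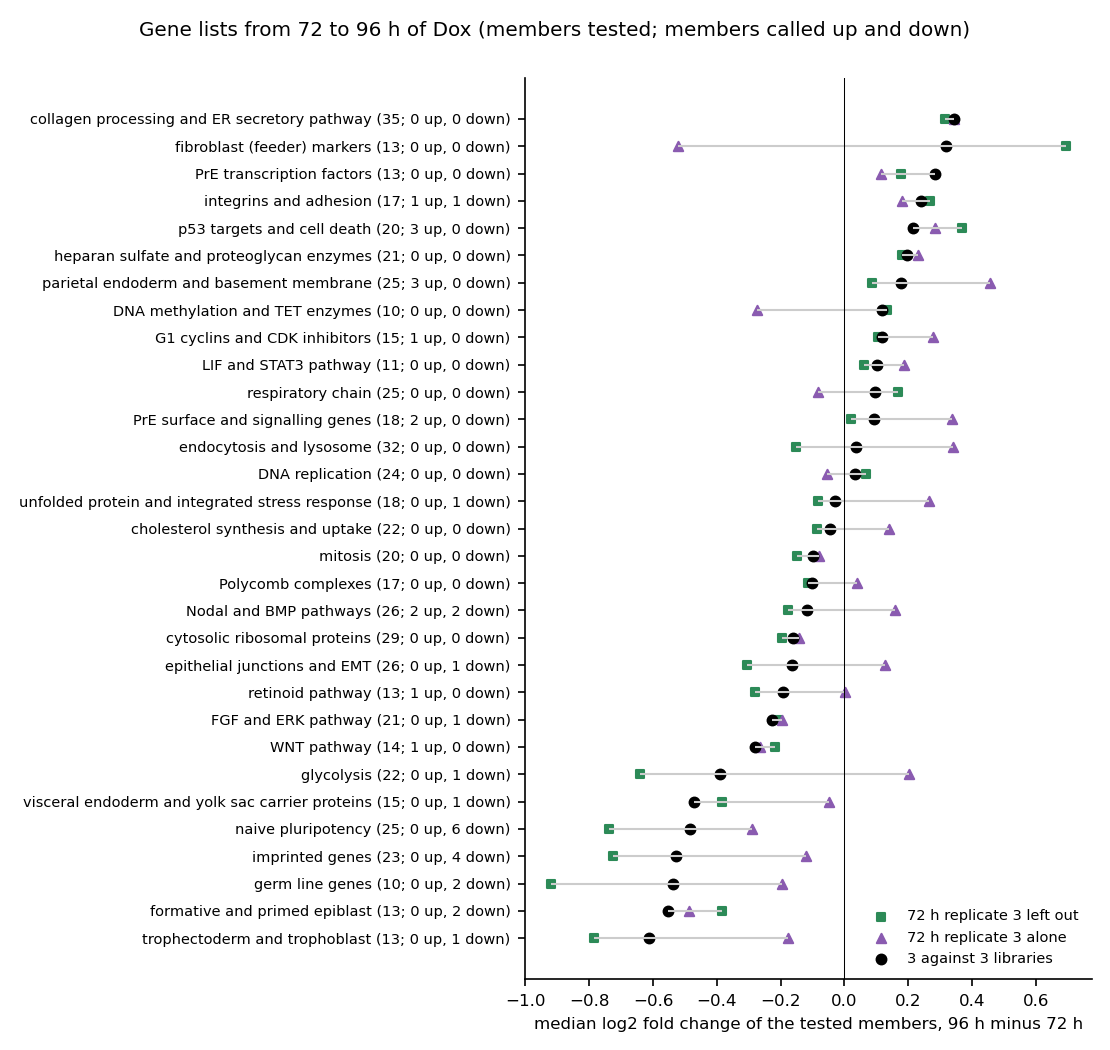
Median log2 fold change from 72 to 96 h of each list with at least 10 tested members (rows, with members tested and called), for 3 against 3 libraries (black circles), without 72 h replicate 3 (green squares) and with that library alone for 72 h (purple triangles). The ER secretory, ribosomal and naive pluripotency lists keep their sign in all 3, while glycolysis and the fibroblast markers change sign with that library alone.

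The other lists held few calls or none, where 0.790% of all tested genes rose and 1.21% fell. One trophoblast gene of 13 (Esx1, -1.18) and 2 germ line genes of 10 (Sycp3, -1.25, and Mov10l1, -1.25) fell. In these lists 6 and 4 genes fell without replicate 3 at 72 h, when 1.56% of all tested genes rose and 4.08% fell. With that library alone for 72 h the medians of the 2 lists were -0.18 and -0.20, against -0.61 and -0.54 with 3 libraries. One of 15 genes of the G1 phase (Cdkn1a), 1 of 13 retinoid genes (Stra6) and 1 of 4 tested mesoderm and definitive endoderm genes (Kdr) rose. Without replicate 3 at 72 h the higher and lower calls of these lists were 2 and 1, 1 and 2, and 2 and 0. No member was called for DNA methylation and TET enzymes, Polycomb complexes, endocytosis and lysosome, heparan sulfate enzymes, the respiratory chain, cholesterol synthesis, LIF and STAT3, neural, 2-cell-like, or blood and endothelial genes. At an unadjusted p under 0.05 (limma), 2340 of all 13044 tested genes were higher and 2301 lower. Higher and lower members were 2 and 3 of 10 tested for DNA methylation and 2 and 5 of 17 for Polycomb. They were 3 and 5 of 32 for endocytosis and 8 and 0 of 21 for heparan sulfate. For the respiratory chain they were 10 and 0 of 25, for cholesterol 6 and 2 of 22 and for LIF 2 and 2 of 11. They numbered 1 and 0 of 4 for neural, 0 and 2 of 5 for 2-cell-like and 0 and 1 of 4 for blood genes. Without replicate 3 at 72 h there were calls in part of them: 3 lower for endocytosis, 1 lower for Polycomb, 1 higher and 1 lower for heparan sulfate, 1 higher for the respiratory chain, 1 lower for LIF and 1 higher for neural genes. With that library alone there was 1, higher, for cholesterol. Dnmt3b was not called, and the sign of its change depended on a library. Its values were 116.8, 126.9 and 286.5 TPM and then 215.9, 205.5 and 228.2 TPM. Its change was 0.42, 0.82 without replicate 3 at 72 h and -0.40 with that library alone, all inside the fold minimum. The library means are of bulk RNA, in which fewer cells of a type and less RNA per cell cannot be told apart.

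To see whether the genes of the step also differed between libraries outside its 2 groups, 168 h was compared with 48 h. All comparisons of this paragraph came from the same fit as the step and share its spread per gene. The shares below are therefore not independent of the calls of the step. Of the 103 genes that rose, 87 were also called higher at 168 h than at 48 h (84.5%) and 3 lower, where 13.4% of all tested genes were called higher and 9.37% lower. Of the 158 that fell, 108 were called lower (68.4%) and 4 higher. In XEN cells against 0 h, 70 of the 103 were called higher and 5 lower, and 105 of the 158 were called lower and 5 higher, where 20.0% and 15.9% of all tested genes were called higher and lower. Between 24 and 48 h, of the 103, 8 were called higher and 5 lower, and of the 158, 26 were called lower and 14 higher, where 3.60% and 2.09% of all tested genes were.

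**Figure D5:**
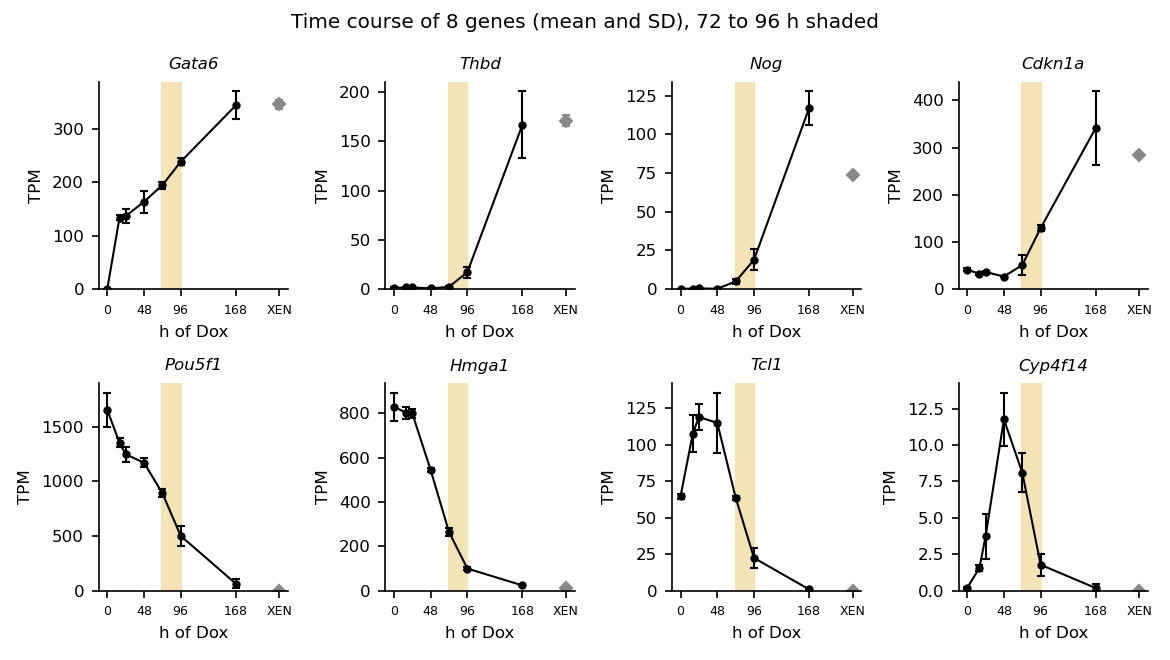
Mean TPM (points, with 1 SD, n = 3) of 8 genes against hours of Dox, with XEN cells (n = 2) as grey diamonds and the step from 72 to 96 h shaded. Thbd stays at or below 2.25 TPM up to 72 h and reaches 17.2 TPM at 96 h, Nog and Cdkn1a rise over the same interval, and the means of Hmga1 and Pou5f1 are lower at each time point from 48 h on.

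The course of single genes around the step differed. From 48 h to 72, 96 and 168 h the mean of Thbd was 0.762 ± 0.044, 2.25 ± 0.50, 17.2 ± 5.7 and 167.0 ± 33.9 TPM in turn (SD over 3 libraries), against 170.9 TPM in XEN cells. Nog went from 0.223 ± 0.036 TPM at 48 h to 116.9 ± 10.8 TPM at 168 h. Igf1 was highest at 96 h among these times, with 3.22 ± 0.91, 10.8 ± 5.1, 34.6 ± 10.3 and 15.5 ± 5.8 TPM, and its later fall from 96 to 168 h was called (-1.14, adjusted p = 0.0096). Hmga1 fell in each of the steps shown, from 544.2 ± 9.8 TPM at 48 h to 264.6 ± 17.1, 99.4 ± 6.5 and 23.3 ± 1.1 TPM. Pou5f1 fell from 1169 ± 41 TPM at 48 h to 63.4 ± 42.1 TPM at 168 h. Its change from 96 to 168 h was -3.13 on the log2 scale (adjusted p = 2.3e-08).

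The siRNA series gave a second set of libraries, at 48 h of Dox, in which to read the genes of the step. Its table holds 6275 genes that the authors had chosen as responsive to GATA6, of which 6264 were tested. The targeted gene Pou5f1 ranged from 781.8 to 1194 TPM (median 895.5) with siCTL and from 281.6 to 386.6 TPM (median 313.9) with siOct4, a change of -1.52 ± 0.14 (adjusted p = 5.2e-05, limma). All siOct4 libraries lay below all siCTL libraries. At an absolute log2 fold change above 0.5, 59 genes were higher with siOct4 (0.942%) and 108 lower (1.72%). With the paired replicates as a block, 152 were higher (2.43%) and 385 lower (6.15%).

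Of the 103 genes that rose from 72 to 96 h, 76 were tested there, and 6 were higher with siOct4 (Epas1, Kit, Plat, Ppp1r16b, Ptger3 and S100g) and none lower. With the replicate block these were 11 and 1. Of the 158 that fell, 130 were tested, 8 were lower with siOct4 (Gpt2, Ly6e, Platr10, Pmel, Slc7a9, Tcl1, Ube2l6 and Urah) and 2 higher (Cldn3 and Phlda2). With the block these were 31 and 7. Plat ranged from 3.72 to 11.1 TPM (median 7.53) with siCTL and from 10.3 to 27.0 TPM (median 19.9) with siOct4, a change of 1.25 ± 0.28 (adjusted p = 0.029, limma). Tcl1 ranged from 66.2 to 139.8 TPM (median 89.7) and from 19.9 to 44.7 TPM (median 36.7), without overlap (-1.56 ± 0.23, adjusted p = 0.0018). Phlda2, which fell in the step, was higher with siOct4, at 17.1 to 48.8 TPM (median 41.2) against 64.2 to 181.3 TPM (median 154.3). The median change with siOct4 was 0.37 over the genes that rose in the step and -0.36 over those that fell, against -0.12 over all genes of that table.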

How the data were processed

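RNA-seq was made by the authors from feeder-depleted cells as stranded, polyA-selected, paired-end libraries. Per the labels and methods, reads were aligned to mm10 with STAR and counted with RSEM, and the authors deposited TPM per gene, without counts, so that the depth of each library is unknown. The authors left out libraries that stood apart in their principal component analysis. Of 44915 rows, those of 60 repeated symbols were reduced to the row with the highest mean. The 15 listed mitochondrially encoded genes were not analysed here.

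Values were taken as log2(TPM + 1), which understates the change of low genes, and fitted with limma 3.58.1 (R 4.3.3, trended and robust) over all 23 libraries of the induction table, so that 8 groups share one estimate of spread. Genes were called when the Benjamini-Hochberg adjusted p was under 0.05 and the log2 fold change exceeded 1 in size (0.5 for the siRNA table). The siRNA table was fitted on its own. Per the methods, replicates of both experiments were independent.

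The comparison, its gene lists (36) and the motifs were chosen with earlier results of these data known. Genes were named by rule (112 in all): the 12 largest rises and falls called without overlap at 5 TPM or more, a set of marker genes, up to 4 called members per list and direction, the 5 called genes with the largest rise and fall in TPM, and the 6 largest differences of consecutive steps each way. Others are said to be chosen after their values were seen. Same-numbered 72 and 96 h libraries did not deviate together (r from -0.20 to -0.06), and same-numbered siRNA libraries did (0.24 to 0.71 over 6 pairs). Alternatives were another pseudocount, other filters and thresholds, median-of-ratios rescaling, a replicate block, an untrended fit, fewer groups and leaving out each library. Using replicate 3 alone for 72 h and the calls common to every leave-one-out fit were added after seeing the data. The fit was tested on simulated data for the 96 against 72 h comparison over 13044 genes. It recovered 97% of changes of log2 2 and 100% of changes of log2 1.5, and made 3 false calls. Changes were set only in genes above 5 TPM. The simulated noise had the same spread in all groups and no library that stood apart. These shares therefore do not say how well the fit works with 72 h replicate 3 in the group. Gene positions are from GENCODE M21 (mm10) and promoters from RefSeq (GRCm38.p6).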

Additional observations from a re-analysis of the deposited data

Results flagged for a closer look

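The change from 72 to 96 h was set against the change from 48 to 72 h, which shares the 72 h libraries, and their difference was tested in limma. At an adjusted p under 0.05 and a difference above 1 in size, it was positive for 131 genes (1.00% of those tested) and negative for 274 (2.10%). The genes with the largest differences are given because their changes in consecutive intervals differed by this test. As a high value in a 72 h library moves both changes in opposite directions, all of them rest on the 72 h group.

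On the log2 scale the positive differences were 3.74 ± 1.09 for Hist1h2an (SE, adjusted p = 0.045), 2.58 ± 0.65 for H2ac7 (0.028), 2.36 ± 0.53 for Zfp365 (0.017), 2.23 ± 0.61 for AA465934 (0.036), 2.17 ± 0.58 for Ccnd1 (0.034) and 2.13 ± 0.62 for Tfec (0.044). The negative ones were -7.75 ± 1.66 for AL731706.2 (0.016), -3.28 ± 0.62 for Gm8332 (0.0087), -3.21 ± 0.71 for Sprr2a2 (0.017), -2.89 ± 0.69 for Gm2721 (0.023), -2.78 ± 0.63 for Gm5039 (0.018) and -2.63 ± 0.68 for Nkain4 (0.031). Ccnd1 is cyclin D1 and H2ac7 and Hist1h2an are histone genes, whose near-identical copies can share reads. Without replicate 3 at 72 h, 11 of the 12 kept an adjusted p under 0.05, and Hist1h2an was at 0.072. With the 48, 72 and 96 h libraries alone none passed, with adjusted p between 0.14 and 0.23. AL731706.2 stood at 0, 103.6 and 29.2 TPM at 72 h and at 0 in all 96 h libraries, and its difference rests on these libraries. Ccnd1 stood at 4.73, 4.71 and 21.8 TPM at 72 h and at 12.9, 13.5 and 10.6 TPM at 96 h.

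Among 32 sets of 6 siRNA values screened for a library far from the others, 0 were found, where chance gives about 1.6.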

How the results depend on the processing

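The counts of the step depended on the fold minimum, the libraries fitted and single 72 h libraries. Against 103 higher and 158 lower genes, the 6 libraries by themselves gave 10 and 7, leaving out 1 library at a time gave 61 to 203 and 71 to 532 (lowest without 72 h replicates 1 and 2, highest without replicate 3), 72 h replicate 3 alone gave 67 and 42, and 43 and 43 were called in every leave-one-out fit. Without a fold minimum there were 1328 and 1267, with a pseudocount of 0.1 there were 154 and 341, and at an adjusted p under 0.01 99 were lower. The replicate block gave 103 and 156, so that it moved neither count by 1.5 times. The labels do not say whether same-numbered samples were paired, and these counts cannot show it. The difference of consecutive steps (131 and 274) fell to 0 and 0 with the libraries of its 3 groups alone (981 and 1368 at an unadjusted p under 0.05, limma), 77 and 166 without a filter and 12 and 36 at an adjusted p under 0.01. It was 445 and 567 without a fold minimum, and 6 to 753 and 14 to 1601 when 1 library was left out, the highest without 72 h replicate 3.

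Of 66 called named genes, 64 were still called without 72 h replicate 3, 64 under median-of-ratios rescaling, 64 with the block, 39 without 72 h replicate 1, 12 with replicate 3 alone and 6 with the 6 libraries. Of the genes that rose, 1 was called lower from 48 to 168 h at an adjusted p under 0.01 (3 before). Of those that fell, 9 were higher in XEN cells without a fold minimum (5 before). With siOct4, 12 of the risen genes were higher after rescaling. With the replicate block 11 were higher and 1 lower, and of the fallen genes 31 were lower and 7 higher.

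Signs changed for 19 named genes. With 72 h replicate 3 alone the log2 changes were -0.19 for AA465934, -0.78 for Ccnd1, -0.73 for Cdh2, 0.26 for Cubn, -0.40 for Dnmt3b, 0.16 for Epcam, 0.34 for Klf4, 0.38 for Nkain4, 0.19 for Pdgfra and 0.27 for Sox17. Leaving out 1 library gave -0.14 to 0.45 for Cdh2, -0.13 to 0.074 for Cubn, -0.028 to 0.13 for Dab2, -0.15 to 0.094 for Dnmt3l, -0.020 to 0.086 for Gata4, -0.11 to 0.18 for Lamb1, -0.24 to 0.064 for Sox17, -0.051 to 0.33 for Sparc, -0.64 to 0.56 for Sprr2a2, -0.15 to 0.037 for Spry4, -0.022 to 0.30 for Srgn and -0.52 to 0.065 for Utf1. The causes were not tested.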
